A study of Mus musculus with 1824 samples.

Results

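The genes described here are 8 transcriptional regulators of the first blood cells: *Runx1* and its partner *Cbfb*, the zinc-finger repressors *Gfi1* and *Gfi1b*, the progenitor factor *Myb*, the elongation factor subunit *Mllt3* (AF9), and the Ikaros family genes *Ikzf1* and *Ikzf2*. They were chosen by name, and each matched 1 of the 55487 Ensembl genes in the count table. Expression was measured by Smart-seq2 in 1824 single cells of mouse chimaeras, on 11 plates of E7.5 cells and 8 plates of E8.5 cells. The chimaeras were made by injecting embryonic stem cells that lacked *Tet1*, *Tet2* and *Tet3* and carried an H2B-tdTomato label into C57BL/6J blastocysts, which were carried by CD1 recipients, and the sample labels name the strain CD1 for every cell. E8.5 cells came from pooled embryos and were sorted by CD41, the surface protein encoded by *Itga2b*, and by KDR, from the tdTomato-positive knockout cells and from the host cells. The paper states that chosen populations of the blood and endothelial trajectory were isolated at E7.5 too. The labels do not say which E7.5 plates were sorted, so cells of neither stage can be taken as unselected. All cells compared here thus come from chimaeras, knockout and host cells are mixed, and the labels give neither genotype nor sort for a cell, so these were not compared. Plate, sorted population, genotype and embryo cannot be told apart. The labels name the animal only for 4 E7.5 embryos, so each stage counts as 1 sample, no difference between kinds of cell carries a test, and plates give only a technical range.

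The first blood cells of the mouse form in the yolk sac, where mesoderm gives rise to endothelium, to primitive erythroid cells and to an early wave of multipotent and myeloid progenitors. RUNX1 binds DNA together with the non-DNA-binding subunit CBFB and is needed for the endothelial-to-haematopoietic transition, in which haemogenic endothelial cells lose their endothelial programme. GFI1 and GFI1B are targets of RUNX1 in this transition and act as repressors through the LSD1 (*Kdm1a*) and CoREST (*Rcor1*) complex. MYB is required for definitive but not for primitive haematopoiesis, MLLT3 is a reader of acylated histones in the elongation machinery and has roles in erythroid and megakaryocytic differentiation, and the Ikaros proteins are best known for lymphoid and erythroid gene regulation.

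The promoters of *Runx1* and *Gfi1b* are shown because *Gfi1b* was the gene of the 8 whose level across cells was most like that of *Runx1*, and because *Runx1* has a distal and a proximal promoter. The reads were counted per gene, so the start site in use cannot be read from these data. The sequences are the 250 bases before the RefSeq start sites on GRCm38.p6, written 5′ to 3′ on the gene's strand. Capitals mark matches on either strand to 3 core motifs, which did not overlap: TGTGGT for the RUNX proteins, GATAA for the erythroid zinc-finger factors, and AAATC for the GFI proteins. Of 32851 mouse promoter windows of this length, 14.05% held TGTGGT, 22.6% held GATAA and 32.7% held AAATC.
Runx1 distal promoter (chr16:92826075-92826324, minus strand): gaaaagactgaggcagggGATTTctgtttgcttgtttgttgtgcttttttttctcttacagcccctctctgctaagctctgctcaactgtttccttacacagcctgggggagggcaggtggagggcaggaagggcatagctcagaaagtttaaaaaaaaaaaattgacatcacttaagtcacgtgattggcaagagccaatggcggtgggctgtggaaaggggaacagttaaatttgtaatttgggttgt
Runx1 proximal promoter (chr16:92697330-92697579, minus strand): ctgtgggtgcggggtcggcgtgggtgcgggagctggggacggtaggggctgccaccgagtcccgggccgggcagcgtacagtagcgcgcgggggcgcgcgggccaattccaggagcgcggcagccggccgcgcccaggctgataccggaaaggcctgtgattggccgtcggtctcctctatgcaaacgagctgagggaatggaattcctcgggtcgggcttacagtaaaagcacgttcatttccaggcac
Gfi1b promoter (chr2:28621983-28622232, minus strand): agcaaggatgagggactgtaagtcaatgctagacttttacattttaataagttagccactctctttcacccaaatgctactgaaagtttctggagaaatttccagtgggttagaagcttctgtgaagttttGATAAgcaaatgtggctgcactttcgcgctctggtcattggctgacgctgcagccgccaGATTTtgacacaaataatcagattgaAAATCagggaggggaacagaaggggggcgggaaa

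The distal *Runx1* window had a GC content of 45.6% and 1 AAATC match, near the far end of the window, and the proximal window had a GC content of 67.6% and none of the 3 motifs. The *Gfi1b* window had 44.4% GC, 1 GATAA match near its middle and AAATC matches at 34 and 60 bases before the start site. TGTGGT was found in none of the 11 windows listed for 7 of the 8 genes. No match in a window says nothing about binding by the factor. On GRCm38 *Runx1* (ENSMUSG00000022952) spans chr16:92601466-92826149 on the minus strand, and *Gfi1b* (ENSMUSG00000026815) spans chr2:28609450-28621982 on the minus strand. *Cbfb* (ENSMUSG00000031885) lies at chr8:105170674-105217989 on the plus strand and *Ikzf1* (ENSMUSG00000018654) at chr11:11685003-11772926 on the plus strand. The other genes are on minus strands: *Gfi1* (ENSMUSG00000029275) at chr5:107716657-107726036, *Myb* (ENSMUSG00000019982) at chr10:21124935-21160984, *Mllt3* (ENSMUSG00000028496) at chr4:87769925-88033364 and *Ikzf2* (ENSMUSG00000025997) at chr1:69531214-69687245. Genes that overlap them in the annotation had at most 1.54 CPM over all cells, the highest being the intronic *Gm28112* within *Ikzf2*.

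Of the 1824 cells, 1634 had at least 100000 reads, at most 10% mitochondrial reads and at most 20% reads of ribosomal protein genes, 57.8% of them at E7.5 and 42.2% at E8.5. Reads per cell ranged from 0 to 6162793 in the whole table, with a median of 611135. Cells were gated by RNA into 4 kinds that may overlap: *Cdh5*-positive (at least 10 CPM, or reads scaled to a library of fixed size, of the endothelial cadherin), *Itga2b*-positive, *Pf4*-positive (platelet factor 4) and globin-high (at least 1% of reads on 8 haemoglobin genes). At E8.5 the *Cdh5* gate took 32.2% of the cells, the *Itga2b* gate 49.3% (340 cells), the *Pf4* gate 10.2% (70 cells) and the globin gate 24.2%, and 35.99% were in no gate. At E7.5 the gates took 13.8% (130 cells), 17.1%, 4.87% (46 cells) and 5.82% (55 cells), and 78.3% (740 cells) were in none. The gates overlapped: 74.8% of the E8.5 *Cdh5*-positive cells were *Itga2b*-positive too, against 1.35% that were globin-high. Beside *Cdh5* itself, which sets the gate, all 7 other endothelial marker genes were at least 2-fold higher in the E8.5 *Cdh5*-positive than in the ungated cells, and 7 of 7 erythroid markers were so in the globin-high cells. In the *Cdh5*-positive cells 8 of 8 myeloid, 5 of 7 megakaryocyte and 4 of 7 erythroid markers were higher too. In the globin-high cells 5 of 7 megakaryocyte, 1 of 8 endothelial and 1 of 8 myeloid markers were. A gate thus names its gene and not a single cell type. Most E7.5 blood cells came from a single plate: 53 of the 55 globin-high cells and 34 of the 46 *Pf4*-positive cells were on lane plate 1. At E8.5, all but 3 *Cdh5*-positive cells came from plates 3 to 6, and these plates differed so much in *Runx1* that they are described separately further on.

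*Runx1*, pooled over plates, was high in every gate at both stages and low outside them. At E8.5 its pooled level was 2.32 CPM in ungated cells, 53.4 CPM in *Cdh5*-positive, 77.8 CPM in globin-high, 106.4 CPM in *Itga2b*-positive and 174.4 CPM in *Pf4*-positive cells. At E7.5 the order was the same, with 12.4, 72.8, 105.4, 122.03 and 180 CPM. The steps between gates were smaller than the ranges between plates. In E8.5 *Cdh5*-positive cells the 4 plates had 2.36, 3.76, 172.3 and 73.5 CPM (plates 3 to 6), in globin-high cells plates 1, 2 and 5 had 32.3, 139.02 and 280.8 CPM, and in *Pf4*-positive cells plates 2, 3, 5 and 6 had 90.4, 0.227, 237.1 and 109.2 CPM. In *Itga2b*-positive cells the 6 plates ran from 1.45 CPM (plate 3) to 220.04 CPM (plate 5). The plate ranges of all gates overlapped, and the *Cdh5*-positive cells of plates 3 and 4 and the *Itga2b*-positive and *Pf4*-positive cells of plate 3 fell within the range of the ungated cells, which ran from 0.0658 to 24.7 CPM over 6 plates. At E7.5, *Cdh5*-positive cells of lane plates 1 to 4 had 142.6, 26.001, 56.9 and 42.4 CPM, and the 11 plates of ungated cells had a lowest value of 0, a median of 7.52 and a highest of 27.8 CPM, so only lane plate 2 fell inside the ungated range.

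On the log2 scale, without a pseudocount, *Runx1* was 4.52 (95% exact interval 4.38 to 4.66) above the ungated cells in E8.5 *Cdh5*-positive, 5.52 (5.38 to 5.66) in *Itga2b*-positive, 6.23 (6.09 to 6.37) in *Pf4*-positive and 5.06 (4.93 to 5.21) in globin-high cells. The E7.5 differences were 2.55 (2.51 to 2.59), 3.29 (3.26 to 3.33), 3.85 (3.81 to 3.89) and 3.08 (3.04 to 3.13). The ungated level below these was 12.4 CPM at E7.5 and 2.32 CPM at E8.5. The intervals on CPM and its ratios treat reads as independent, which Smart-seq2 reads are not, so they are too narrow. Intervals on shares of cells treat cells as independent. None of the intervals given here covers differences between plates or embryos. With each cell thinned to 100000 reads, at least 1 *Runx1* read was found in 39.6% of E8.5 *Cdh5*-positive cells (95% Clopper-Pearson interval 33.2 to 46.4), in 68.5% of *Itga2b*-positive, 82.9% of *Pf4*-positive and 73.7% of globin-high cells, against 6.45% of ungated cells (3.73 to 10.3). At E7.5 the same shares were 41.5%, 62.3%, 82.6% and 83.6%, against 23.4% of ungated cells. Ungated E7.5 cells that carried the epiblast marker *Pou5f1* had a *Runx1* read in 24.2% of cells at 9.81 CPM, and those with the extraembryonic ectoderm marker *Elf5* in 15.6% of 96 cells at 2.98 CPM. Whether the *Pou5f1*-positive cells included other lineages was not tested. The E7.5 shares in *Cdh5*-positive cells were thus less than 2-fold above that of *Pou5f1*-positive cells, while the level was higher by more than that.

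**Figure D1:**
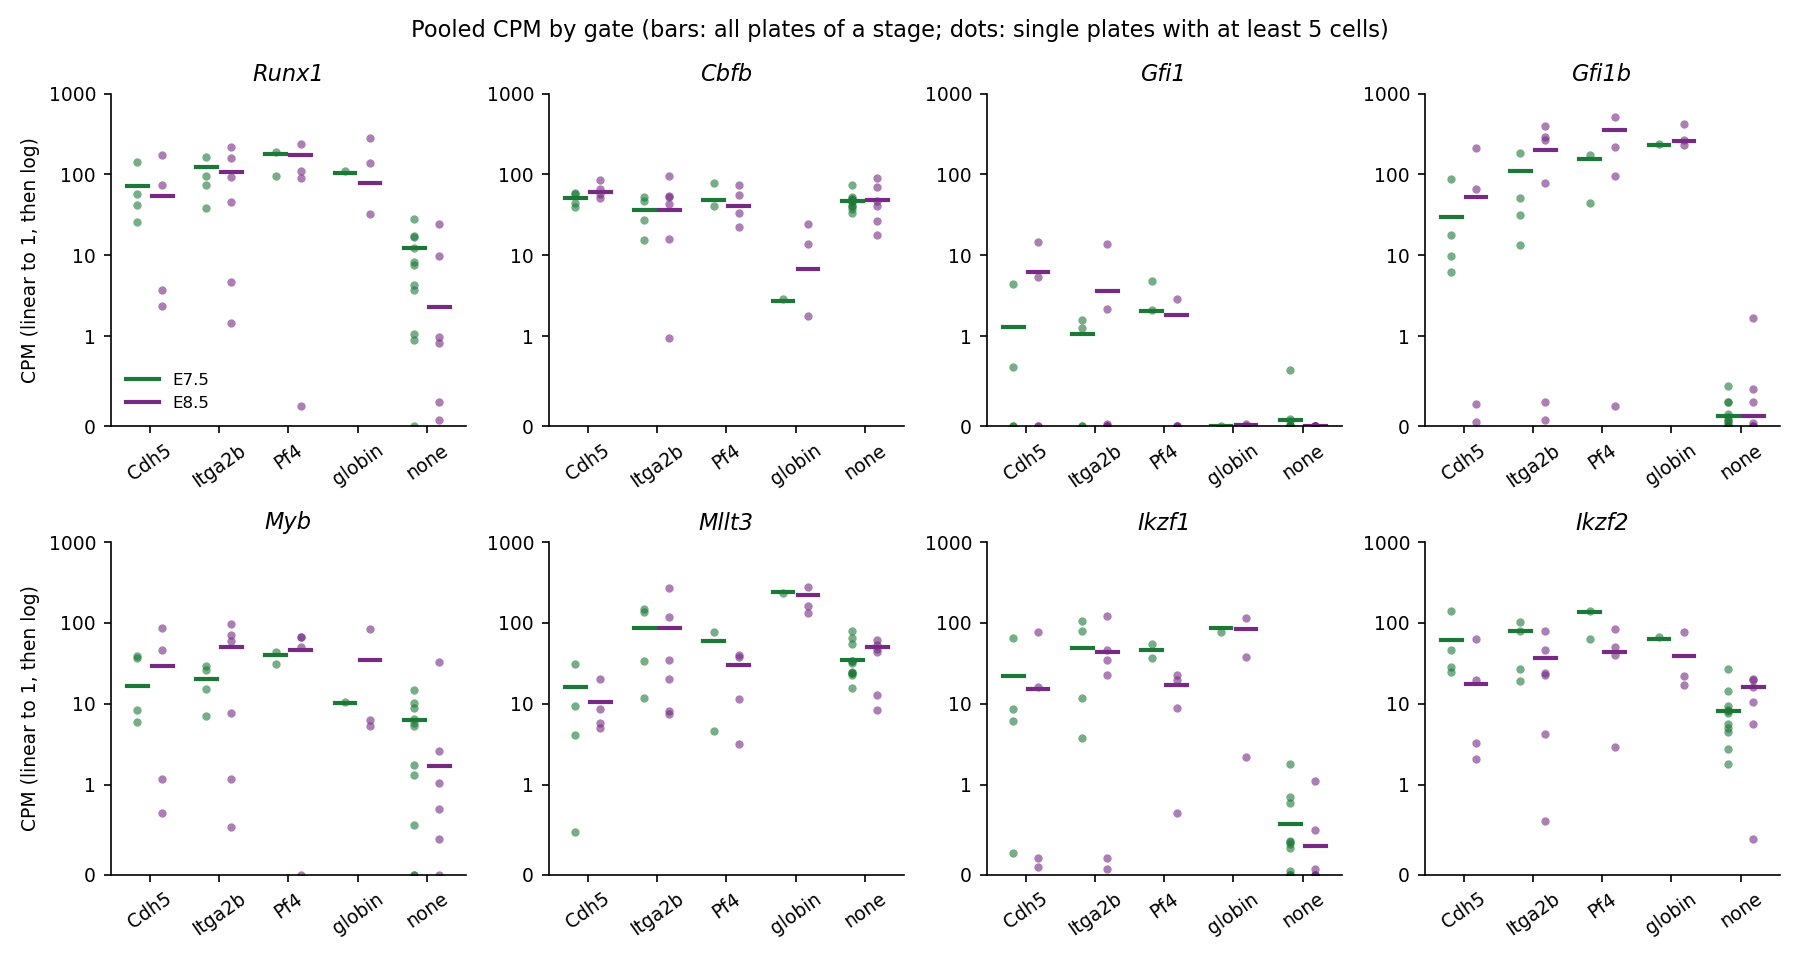
Pooled level of each of the 8 genes in CPM (y axis, linear below 1 and logarithmic above) in *Cdh5*-positive, *Itga2b*-positive, *Pf4*-positive, globin-high and ungated cells (none), at E7.5 (green) and E8.5 (purple). Bars are all plates of a stage and dots are plates with at least 5 cells of the gate. *Runx1* and *Gfi1b* bars are higher in all 4 gates than in ungated cells, *Cbfb* is at 2.73 and 6.78 CPM in globin-high cells, and the dots of E8.5 *Cdh5*-positive cells spread over more than 10-fold for *Runx1*, *Gfi1b*, *Myb*, *Ikzf1* and *Ikzf2*.

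*Cbfb*, the common subunit of the core-binding factors, did not follow *Runx1* across the gates. It stood at 47.8 CPM in E8.5 ungated cells (95% Poisson interval 46.8 to 48.8), 61.4 in *Cdh5*-positive, 36.6 in *Itga2b*-positive and 40.5 in *Pf4*-positive cells, but at 6.78 CPM (6.35 to 7.23) in globin-high cells. The E7.5 levels were 47.6, 50.6, 36.5 and 48.2 CPM, and 2.73 CPM (2.34 to 3.16) in globin-high cells. The globin-high values were 2.85 CPM on E7.5 lane plate 1 and 1.79, 13.8 and 24.3 CPM on E8.5 plates 1, 2 and 5, while *Cdh5*-positive cells ranged from 39.6 to 85.2 CPM over 8 plates and ungated cells from 17.7 to 91.1 CPM over 17, so globin-high plates lay below all *Cdh5*-positive plates, and all but plate 5 below the ungated plates. A *Cbfb* read was found in 7.27% of E7.5 and 28.1% of E8.5 globin-high cells, against 74.5% and 61.7% of ungated cells. Pooled over plates, the globin-high cells thus held *Runx1* RNA at 105.4 and 77.8 CPM with *Cbfb* at less than 10 CPM. Between the E8.5 plates the genes moved together, with *Runx1* at 32.3, 139.02 and 280.8 CPM on plates 1, 2 and 5. The pooled E8.5 pair of values therefore mixes plates.

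*Gfi1b*, the family member of the erythroid and megakaryocytic lineages, had the largest pooled log2 difference from ungated cells in each gate. This difference lay between 5.57 and 8.32 at E8.5 with a pseudocount of 1 CPM. Its level was 0.111 CPM in E8.5 ungated cells and 51.9, 202.1, 354.4 and 259.5 CPM in *Cdh5*-positive, *Itga2b*-positive, *Pf4*-positive and globin-high cells. The E7.5 levels were 0.109 CPM outside the gates and 29.4, 110, 156.3 and 230.9 CPM within them. E8.5 plates ran from 0.0659 to 396.5 CPM in *Itga2b*-positive and from 0.227 to 513.1 CPM in *Pf4*-positive cells, so some plates had almost none. Globin-high cells of plates 1, 2 and 5 were within 2-fold of each other at 266.4, 233.3 and 415.8 CPM, a far smaller spread than that of *Runx1* in the same cells. In thinned cells a *Gfi1b* read was found in 85.03% of E8.5 globin-high and 74.3% of *Pf4*-positive cells, 21.2% of *Cdh5*-positive cells and 1 ungated cell (0.403%).

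*Gfi1*, the paralogue that acts with *Gfi1b* in haemogenic endothelium, was rare. Its E8.5 level was 6.16 CPM in *Cdh5*-positive, 3.65 in *Itga2b*-positive, 1.85 in *Pf4*-positive and 0.0147 in globin-high cells, where 2 reads were counted. The E8.5 ungated cells held no *Gfi1* read, where 3 reads over the group would be 0.0158 CPM. Over that floor the *Cdh5*-positive level was 388.5-fold, the *Itga2b*-positive level 230.1-fold and the *Pf4*-positive level 116.5-fold. These folds leave out the spread between cells and are not bounds. The *Pf4*-positive level rested on 68 reads in 2 of 70 cells, and with gates at 50 CPM its log2 difference was -0.071. At E7.5 the 4 gates had 1.32, 1.06, 2.06 and 0 CPM and the ungated cells 0.0708 CPM. Thinned to 100000 reads, 15 E8.5 cells had a *Gfi1* read. Of these, 15 were *Itga2b*-positive, 14 *Cdh5*-positive, 2 *Pf4*-positive and 1 globin-high, 13 had a *Runx1* read and 4 a *Gfi1b* read. Of the 6 such cells at E7.5, 5 had a *Runx1* read and 4 were *Cdh5*-positive. The *Gfi1* cells of E8.5 thus sat almost wholly in cells positive for both the endothelial and the CD41 gene, and the level of a plate rested on few cells: on plate 5 a single cell held 67.03% of the reads of the *Cdh5*-positive cells, and on plate 6 a single cell with 394.3 CPM held 31.4%.

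*Myb*, pooled over plates, was highest in *Itga2b*-positive cells at E8.5. It had 1.71 CPM in ungated, 29.6 in *Cdh5*-positive, 34.9 in globin-high, 45.8 in *Pf4*-positive and 50.2 CPM in *Itga2b*-positive cells. The last 2 gates overlapped between plates, at 0 to 66.97 CPM in *Pf4*-positive and 0.534 to 97.02 CPM in *Itga2b*-positive cells. At E7.5 *Myb* was at 6.403 CPM outside the gates, 16.5, 20.3 and 40.3 CPM in *Cdh5*-, *Itga2b*- and *Pf4*-positive cells, and 10.4 CPM in globin-high cells. Outside the gates at E7.5, *Pou5f1*-positive cells had 9.44 CPM and a *Myb* read in 21.01% of cells, against 0.161 CPM and 1.04% in *Elf5*-positive cells. Globin-high cells differed by plate more for *Myb* than for any other of the 7 genes found there but *Ikzf1*, with 6.37, 84.3 and 5.37 CPM on E8.5 plates 1, 2 and 5.

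*Mllt3* differed from ungated cells in opposite directions in *Cdh5*-positive and globin-high cells. At E8.5 it stood at 50.5 CPM in ungated cells, 10.6 CPM in *Cdh5*-positive and 220.8 CPM in globin-high cells, with 30.1 CPM in *Pf4*-positive and 86.7 CPM in *Itga2b*-positive cells. The E7.5 values were 34.3, 16.2, 239.2, 59.1 and 87.2 CPM in the same order of cells. Globin-high plates (133.2 to 278.5 CPM over 4 plates) did not overlap the plates of *Cdh5*-positive cells (0.471 to 30.8 CPM over 8 plates). A read of *Mllt3* was found in 89.8% of E8.5 globin-high and 96.4% of E7.5 globin-high cells. Because 63.3% of the E8.5 ungated cells also had a read, *Mllt3* is the only gene of the 8 besides *Cbfb* that was found in more than 50% of the ungated cells at both stages.

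The Ikaros genes differed from each other. *Ikzf1* was at 0.317 CPM in E8.5 ungated cells and at 15.4, 43.7, 16.9 and 83.2 CPM in *Cdh5*-positive, *Itga2b*-positive, *Pf4*-positive and globin-high cells, and at E7.5 at 0.568 CPM and 21.98, 48.8, 45.6 and 86.3 CPM. *Ikzf2* (Helios) was also expressed outside the gates, at 16.1 CPM in E8.5 and 8.06 CPM in E7.5 ungated cells. Its E8.5 level in the 4 gates was 17.8, 36.6, 43.98 and 38.97 CPM, and its E7.5 level was 61.5, 79.3, 134.7 and 63.9 CPM. At both stages *Ikzf1* was highest in globin-high cells and *Ikzf2* in *Pf4*-positive cells, although *Ikzf1* in E8.5 globin-high cells ran from 2.21 CPM (plate 5) through 37.7 (plate 2) to 114.8 CPM (plate 1).

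Per kilobase of exon, the scale on which genes can be compared, *Gfi1b* led in every gate at both stages when plates were pooled. E8.5 *Pf4*-positive cells had 193.7 CPM per kb of *Gfi1b*, 14.5 of *Runx1*, 11.6 of *Cbfb*, 5.12 of *Myb*, 3.79 of *Ikzf2*, 2.92 of *Ikzf1*, 2.51 of *Mllt3* and 0.579 of *Gfi1*. E8.5 globin-high cells had 141.8 CPM per kb of *Gfi1b*, 18.4 of *Mllt3*, 14.4 of *Ikzf1*, 6.47 of *Runx1*, 3.91 of *Myb*, 3.36 of *Ikzf2* and 1.95 of *Cbfb*. In E8.5 *Cdh5*-positive cells the second place went to *Cbfb*, with 17.6 CPM per kb against 28.4 for *Gfi1b* and 4.44 for *Runx1*. That order did not hold on plates 3 and 4. There *Gfi1b* (1.83 kb of exon) was at 0.252 and 0.0418 CPM and *Cbfb* (3.48 kb) at 56.97 and 85.2 CPM.

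Counted at a 2-fold difference of pooled CPM (pseudocount 1 CPM), most of the 8 genes were higher in each gate than in ungated cells. At E8.5, 5 genes were higher and 1 lower in *Cdh5*-positive cells, where 9.39% of all 15374 genes tested were higher and 17.8% lower. In *Itga2b*-positive cells 6 were higher and none lower (8.36% and 21.8% of all genes), in *Pf4*-positive cells 6 and none (10.5% and 23.8%), and in globin-high cells 6 and 1 (5.84% and 36.5%). At E7.5 the counts were 6 higher and 1 lower in *Cdh5*-positive cells (12.5% and 18% of all genes), 6 and none in *Itga2b*-positive (10.9% and 18.8%), 6 and none in *Pf4*-positive (12.8% and 27.7%), and 5 and 1 in globin-high cells (8.59% and 37.0%). The genes that were lower were *Mllt3* in *Cdh5*-positive and *Cbfb* in globin-high cells at each stage. The median log2 difference of the 8 genes at E8.5 was 3.17, 3.23, 2.64 and 2.92 in the 4 gates, or 3.57, 4.63, 3.94 and 2.92 with *Gfi1* set over the floor of 3 reads, where the median of all genes tested lay between -0.50 and -0.11. Within single plates the count for *Cdh5*-positive cells was 2 on E8.5 plate 3, 1 on plate 4 and 5 on plate 6, and at E7.5 it was 6, 5, 5 and 3 on lane plates 1 to 4. Set against all other passing cells in place of the ungated cells, 1 gene was higher in E8.5 *Cdh5*-positive and 2 in *Pf4*-positive cells, where the other side also held the cells of the remaining gates.

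Because the gates overlap, cells were also split by the combination of gates they passed, a split chosen after the data had been seen. Pooled over plates, *Runx1* was lowest in cells positive for *Cdh5* alone and in cells that were globin-high alone. At E8.5 it was at 6.25 CPM (5.38 to 7.22) in 51 cells with *Cdh5* only, 59.8 in cells with *Cdh5* and *Itga2b*, the most frequent combination, 98.5 in 21 cells with *Pf4* as well, 243.04 in 34 cells with *Itga2b* and *Pf4* but not *Cdh5*, 231.7 in 19 cells with *Itga2b* only, 99.9 in cells that were *Itga2b*-positive and globin-high, and 16.9 CPM (15.7 to 18.2) in 43 cells that were globin-high only. The E7.5 cells had 29.2, 67.2, 177.4, 295.8, 110.8, 120.7 and 26.5 CPM in the same order, with 8 to 70 cells in each. The combinations were spread unevenly over plates. Of the 51 E8.5 cells with *Cdh5* only, 26 were on plate 3, 19 on plate 4 and 5 on plate 6, with *Runx1* at 3.81, 2.07 and 38.7 CPM. The cells with *Cdh5* and *Itga2b* had 1.61, 0.360 and 72.9 CPM on the same plates, so they were lower than the *Cdh5*-only cells on plates 3 and 4 and higher on plate 6. Of the 34 cells with *Itga2b* and *Pf4*, 29 were on plate 5, and of the 43 that were globin-high only, 37 were on plate 1. Within plate 1, *Runx1* was at 17.1 CPM in the latter and 46.02 CPM in cells that were also *Itga2b*-positive. The cells with *Itga2b* and *Pf4* but neither *Cdh5* nor globin had the highest pooled level at both stages, at E8.5 close to that of the cells with *Itga2b* only.

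The partners split in different ways over the same combinations. *Gfi1b* had the order of *Runx1*, from 0.102 CPM (*Cdh5* only) through 41.5 and 202.8 to 518.5 CPM (*Itga2b* and *Pf4*) at E8.5, but was at 236.3 CPM in cells that were globin-high only, where *Runx1* was at 16.9 CPM. *Gfi1* was confined at E8.5 to the cells with both *Cdh5* and *Itga2b* (8.46 CPM) or with all 3 of these genes (5.21 CPM), apart from 2 reads in globin-high cells. *Myb* peaked at 142.3 CPM in cells with *Itga2b* only and was at 5.49 CPM in cells that were globin-high only. *Mllt3* stayed between 4.06 and 36.3 CPM in the 5 combinations without globin and was at 199.3 and 278.6 CPM in the combinations with it. *Ikzf1* was at 1.70 CPM in cells with *Cdh5* only and at 101.8 CPM in cells that were globin-high only, and *Cbfb* ran the other way, from 59.4 to 3.20 CPM.

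**Figure D2:**
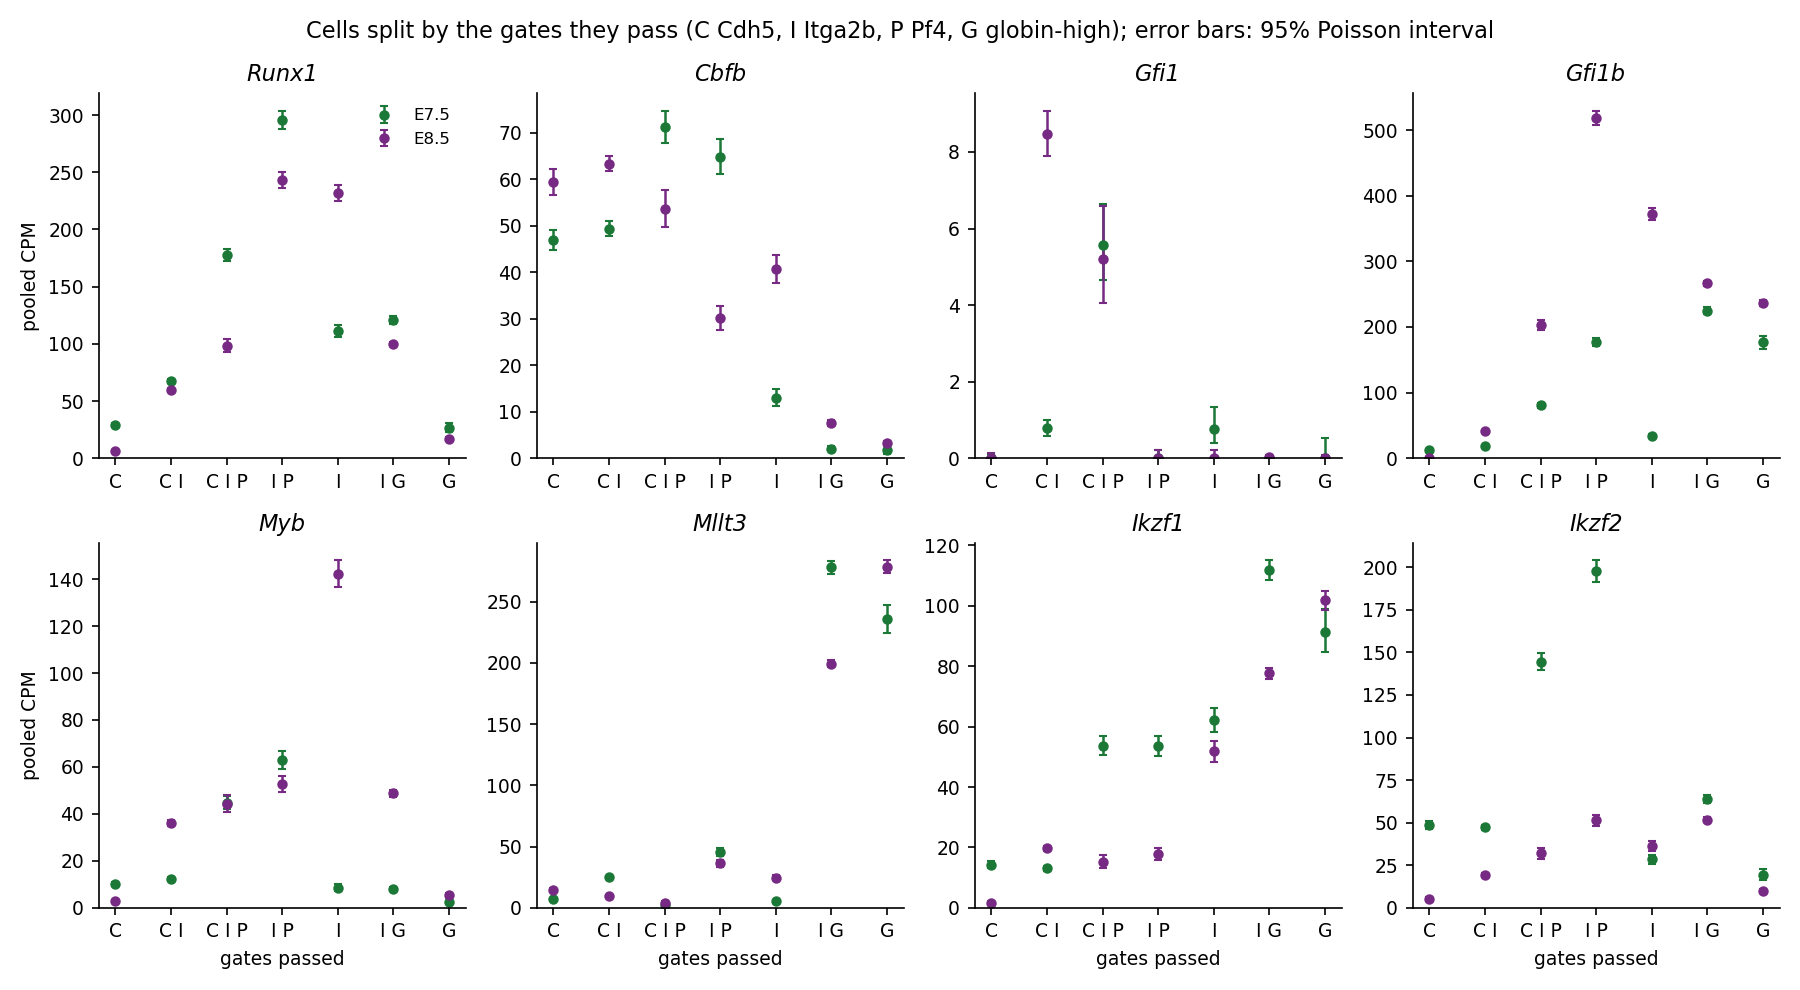
Pooled CPM of each gene in cells split by the gates they pass (C *Cdh5*, I *Itga2b*, P *Pf4*, G globin-high), at E7.5 (green) and E8.5 (purple). Error bars are the 95% Poisson interval, which treats reads as independent and is too narrow. *Runx1* is highest in I P cells (295.8 and 243.04 CPM), *Gfi1* is found where C and I meet, and *Mllt3* and *Ikzf1* are high and *Cbfb* low at the globin end.

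The 4 E8.5 plates with *Cdh5*-positive cells did not look alike. Plates 3, 4, 5 and 6 held 64, 49, 30 and 76 such cells. A *Runx1* read was found in 4 of 64 cells on plate 3 (6.25%, 95% interval 1.73 to 15.2), 5 of 49 on plate 4 (10.2%, 3.40 to 22.2), 30 of 30 on plate 5 (100%, 88.4 to 100) and 47 of 76 on plate 6 (61.8%, 49.98 to 72.8). Cells of a plate are not replicates, so these intervals describe the cells of each plate and do not test plates against each other. *Gfi1b* followed with 0.252, 0.0418, 210.9 and 66.99 CPM, *Myb* with 0.687, 1.17, 87.3 and 46.1 CPM, and *Ikzf1* with 0.183, 0.0836, 76.5 and 16.2 CPM. *Ikzf2* was at 3.30, 2.09, 63.01 and 19.96 CPM and *Gfi1* at 0, 0, 5.38 and 14.7 CPM. *Gfi1* was thus the only one of these 6 genes that was higher on plate 6 than on plate 5.

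*Cbfb* and *Mllt3* lacked this pattern. *Cbfb* was at 56.97, 85.2, 65.6 and 51.7 CPM and was found in 71.9% to 85.7% of the cells of each plate, and *Mllt3* was at 4.97, 20.2, 5.80 and 8.64 CPM. The gate gene itself also differed, with *Cdh5* at 531.04, 222.3, 87.6 and 220.8 CPM, so plates 4 and 6 were nearly equal in *Cdh5* but had *Runx1* at 3.76 and 73.5 CPM. Summed levels of the marker lists moved with the plates: the 8 endothelial genes summed to 5235, 3406, 2097 and 2856 CPM, the 8 myeloid genes to 18.4, 10.7, 1826 and 204.2 CPM, the 7 megakaryocyte genes to 97.8, 113.4, 1025.6 and 337.2 CPM and the 7 erythroid genes to 15.9, 14.5, 149.1 and 156.6 CPM. The 10 SCL complex and ETS partner genes summed to 986.6, 924.7, 1119 and 1021.9 CPM, a range of less than 1.5-fold. The part of these other cell types in the *Runx1* differences was not tested. At E7.5, *Cdh5*-positive cells of lane plate 1 were highest in *Runx1* and 4 more of the genes: on lane plates 1 to 4 *Gfi1b* was at 87.5, 9.91, 6.29 and 17.9 CPM, *Ikzf2* at 139.05, 24.9, 46.8 and 28.5 CPM, and *Ikzf1* at 64.4, 8.52, 6.09 and 0.236 CPM. *Myb* was highest on lane plate 4 (39.1 CPM), *Mllt3* on lane plate 3 (30.8 CPM) and *Cbfb* on lane plate 2 (58.9 CPM). The marker lists moved with lane plate 1 too: the myeloid genes summed to 703.5, 74.3, 18.6 and 32.03 CPM on lane plates 1 to 4, the megakaryocyte genes to 783.1, 244.9, 152.1 and 219.5 CPM and the endothelial genes to 1953, 4422, 2493 and 2967 CPM. Their part in the differences was not tested.

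**Figure D3:**
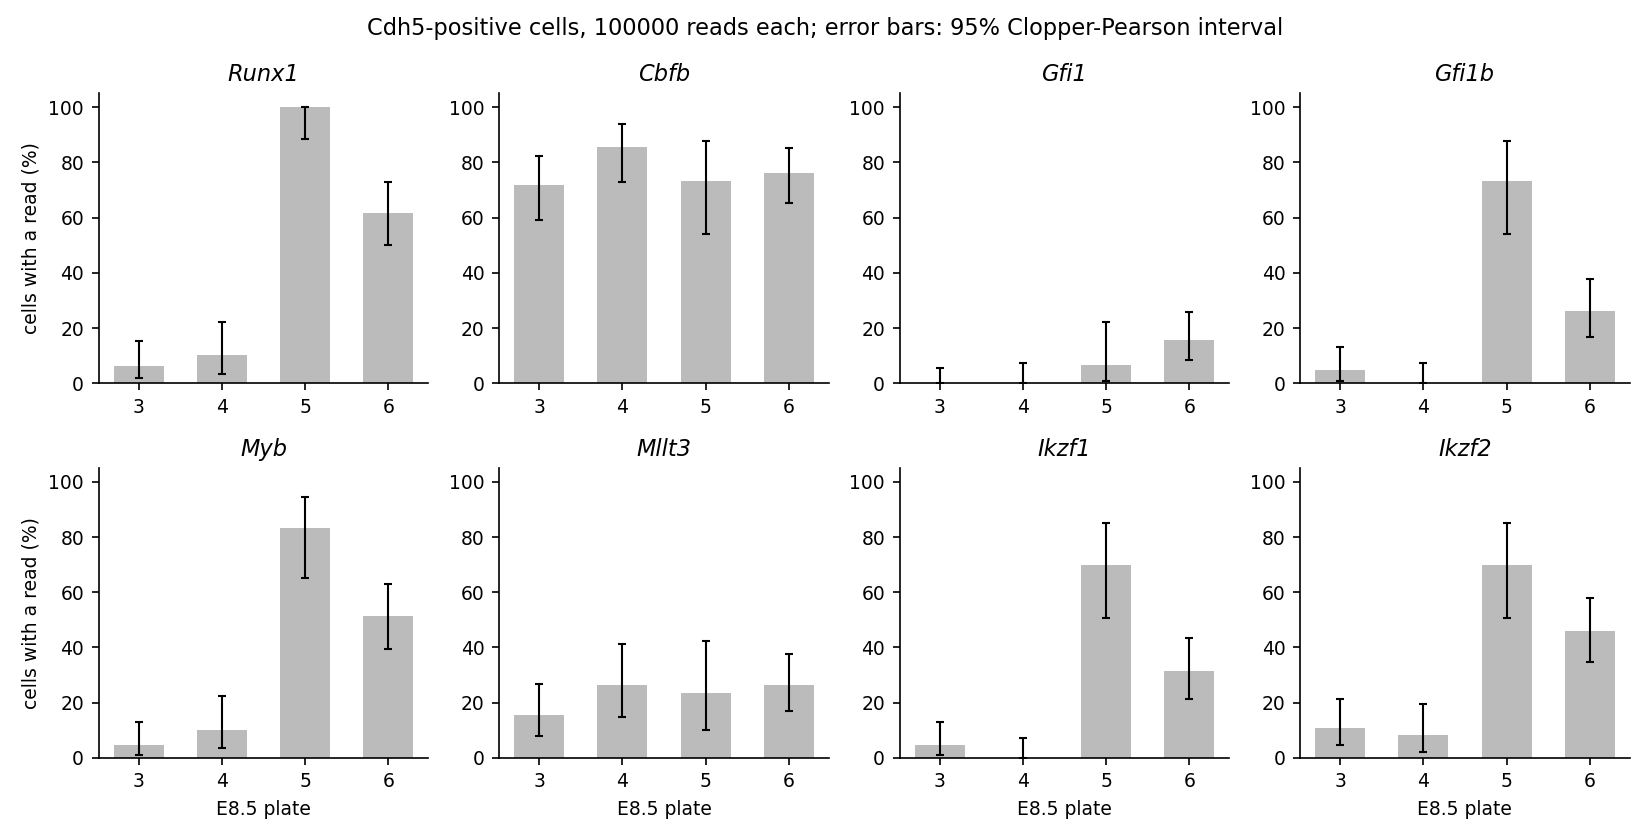
Share of *Cdh5*-positive cells with a read of each gene (y axis, percent) on the 4 E8.5 plates that hold such cells (x axis), each cell thinned to 100000 reads, with 95% Clopper-Pearson intervals. *Runx1* runs from 6.25% and 10.2% on plates 3 and 4 to 100% and 61.8% on plates 5 and 6, while *Cbfb* is found in 71.9% to 85.7% of cells on every plate.

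Globin-high cells were set against *Cdh5*-positive cells, leaving out cells in both gates. At E8.5, 4 genes were at least 2-fold higher (*Mllt3*, *Gfi1b*, *Ikzf1* and *Ikzf2*) and 2 lower (*Cbfb* and *Gfi1*), where 5.66% of all genes were higher and 30.3% lower. At E7.5, 3 were higher (the same but *Ikzf2*) and 2 lower, with 7.97% and 32.4% of all genes. *Mllt3* was at 222.5 against 10.1 CPM at E8.5 and 250 against 16.01 CPM at E7.5, log2 differences of 4.33 and 3.88. *Cbfb* was at 6.45 against 61.6 CPM and 2.87 against 51.8 CPM, differences of -3.07 and -3.77. Both held on the single plates with enough cells: the *Mllt3* difference was 6.33 on E7.5 lane plate 1 and 5.12 on E8.5 plate 5, and that of *Cbfb* was -4.01 and -1.67. *Gfi1* had no read in the globin-high cells compared on either plate. The other calls did not hold on both plates: on lane plate 1 and E8.5 plate 5 the difference of *Gfi1b* was 1.53 and 0.96, that of *Ikzf1* 0.23 and -4.53 and that of *Ikzf2* -1.12 and -1.40, the reverse of its pooled E8.5 direction. *Myb*, which passed 2-fold at neither stage, was lower on both (-1.81 and -3.79). On plate 5 only 8 globin-high and 29 *Cdh5*-positive cells were compared. *Runx1*, pooled over plates, was close in both kinds of cell, 76.3 against 51.7 CPM at E8.5. Its difference was -0.44 on lane plate 1 and 0.64 on plate 5.

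Against the other *Itga2b*-positive cells, globin-high cells differed in a similar way. At E8.5, *Mllt3* (3.85) and *Ikzf1* (1.82) were higher and *Cbfb* (-2.86) and *Gfi1* (-2.80) lower, where 4.62% and 27.9% of all genes were. At E7.5, *Mllt3* (3.42), *Gfi1b* (2.096) and *Ikzf1* (1.42) were higher and *Cbfb* (-3.80), *Gfi1* (-1.33) and *Myb* (-1.17) lower (6.27% and 31.8% of all genes). *Runx1* differed by -0.46 and -0.23. On single plates (E7.5 lane plate 1, then E8.5 plates 2 and 5) *Mllt3* kept its direction, at 3.55, 2.74 and 2.69, as did *Cbfb*, at -3.90, -1.21 and -0.83. *Ikzf1* did not, at -0.0078, 2.80 and -3.97, nor did *Gfi1b*, at 1.11, -1.04 and 0.074. *Runx1* was at -0.97, -1.01 and 0.38 on these plates, so its small pooled differences mix plates. *Gfi1* was at -2.16, 0.029 and -1.74. Lane plate 1 held nearly all E7.5 globin-high cells, and plates 2 and 5 set 80 against 8 and 9 against 65 cells.

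*Pf4*-positive cells, set against *Cdh5*-positive cells, were higher at E8.5 in *Gfi1b* (3.76), *Runx1* (2.26), *Mllt3* (1.99) and *Ikzf2* (1.67) and lower in *Gfi1* (-2.89) and *Cbfb* (-1.05), where 8.75% and 21.1% of all genes were. At E7.5, 6 genes were higher, *Gfi1b* (3.61) and *Mllt3* (2.41) by the most, and none lower (10.8% and 29.4%). Within E7.5 lane plate 1 (18 against 10 cells), 3 were higher, *Mllt3* (4.45), *Gfi1b* (1.56) and *Runx1* (1.02), and 2 lower, *Cbfb* (-1.02) and *Gfi1*, while *Myb* was at 0.52, *Ikzf2* at 0.10 and *Ikzf1* at -0.41. Within E8.5 plate 5 (33 against 16 cells), *Mllt3* (3.77) and *Gfi1b* (2.40) were higher, *Runx1* was at 0.58 and *Ikzf2* at -0.44, and *Ikzf1* (-2.46), *Cbfb* (-1.49), *Myb* (-1.22) and *Gfi1* were lower.

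Most E8.5 globin-high cells were on plate 1 (74 cells) and plate 2 (80 cells), a comparison chosen after their values had been seen, and the plates differed in haemoglobin content, at 20.4% and 6.98% of reads. *Runx1* was at 32.3 and 139.02 CPM, *Cbfb* at 1.79 and 13.8, *Myb* at 6.37 and 84.3 and *Ikzf2* at 17.2 and 78.2 CPM, all lower on plate 1 by a log2 difference of -2.07, -2.41, -3.53 and -2.12. *Mllt3* was at 278.5 and 133.2 CPM and *Ikzf1* at 114.8 and 37.7 CPM, both higher on plate 1, by 1.06 and 1.58. *Gfi1b* was at 266.4 and 233.3 CPM. Of all genes, 5.06% were at least 2-fold higher and 16.6% lower on plate 1. Taking haemoglobin reads out of the library size left every direction in place, with -1.86 for *Runx1*, -2.29 for *Cbfb*, -3.35 for *Myb*, -1.91 for *Ikzf2*, 1.28 for *Mllt3* and 1.81 for *Ikzf1*.

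*Runx1*, *Myb* and *Mllt3* differed by haemoglobin content within the E8.5 plates as well. On E8.5 plate 2, passing cells were binned at 0.1 to 1%, 1 to 5%, 5 to 15% and above 15% of reads on haemoglobin (5, 42, 26 and 12 cells), with CPM computed over the non-haemoglobin reads. *Runx1* was at 218.3, 184.1, 116.8 and 58.5, *Myb* at 154.8, 126.2, 55.1 and 2.08 and *Mllt3* at 21.4, 100.7, 136.03 and 374.8. *Runx1* and *Myb* were thus lower, and *Mllt3* higher, in each next bin of this plate. Plate 1 had 20 cells at 5 to 15% and 54 above 15%, with *Runx1* at 52.1 and 35.1, *Myb* at 23.9 and 0.456 and *Mllt3* at 213.1 and 415.04. E7.5 lane plate 1 had the *Mllt3* order too, with 132.5, 292.2 and 404.4 in its 3 upper bins (14, 25 and 14 cells), but not that of *Runx1*, which was at 124.4, 112.2 and 130, nor that of *Myb*, which was at 15.03, 7.54 and 13.7. The other genes of the plate comparison had no steady order on plate 2, with *Cbfb* at 9.71, 19.6, 6.69 and 11.7, *Ikzf1* at 6.97, 31.1, 57.05 and 45.7 and *Ikzf2* at 68.7, 89.1, 78.3 and 73.4. In the bin above 15%, *Runx1* was at 130 on lane plate 1, 58.5 on plate 2 and 35.1 on plate 1. The bins of 5 to 14 cells are thinly filled, and a single cell can set their value.

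**Figure D4:**
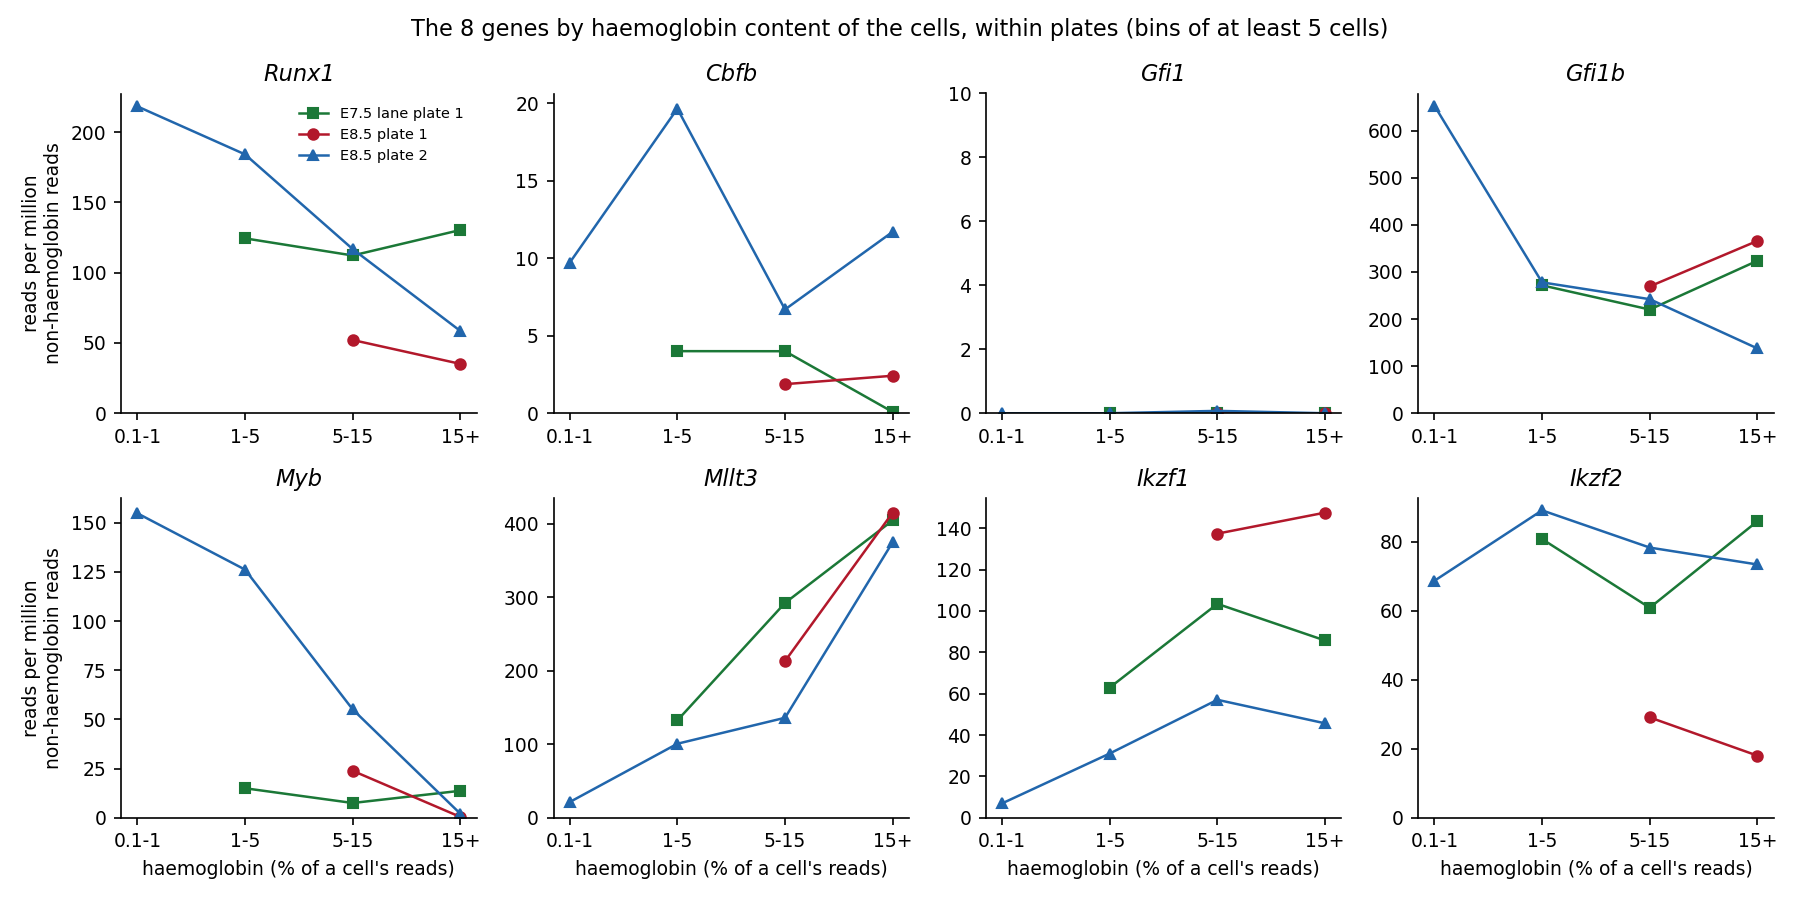
Level of each gene as CPM of the non-haemoglobin reads (y axis) against the haemoglobin share of the cells' reads (x axis, bins in percent), within E7.5 lane plate 1, E8.5 plate 1 and E8.5 plate 2, for bins of at least 5 cells. *Mllt3* is higher in the highest than in the lowest bin on each of the 3 plates (404.4, 415.04 and 374.8 in the highest), and *Myb* is at 0.456 and 2.08 in the highest bin of the E8.5 plates.

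In *Cdh5*-positive cells pooled over plates, *Runx1* reads came with those of *Gfi1b*, *Myb*, *Ikzf1*, *Ikzf2* and *Gfi1*. Among the E8.5 *Cdh5*-positive cells at 100000 reads, 88 (39.6%) had a *Runx1* read. *Gfi1b* was found in 48.9% (38.1 to 59.8) of the cells with and 2.99% (0.819 to 7.47) of those without, *Myb* in 67.05% and 11.2%, *Ikzf1* in 46.6% and 5.22%, *Ikzf2* in 56.8% and 14.2%, and *Gfi1* in 13.6% and 1.49%. *Cbfb* was found in 76.1% and 77.6%. Plates entered the 2 sides unevenly: 30 of 30 such cells of plate 5 had a *Runx1* read, against 4 of 64 on plate 3 and 5 of 49 on plate 4. The 8 myeloid genes summed to 1826 CPM on plate 5 and to 18.4 and 10.7 CPM on plates 3 and 4. The pooled contrast is thus also one between unlike plates. Within plate 6 (47 cells with, 29 without) the shares were 38.3% and 6.90% for *Gfi1b*, 63.8% and 31.03% for *Myb*, 40.4% and 17.2% for *Ikzf1* and 53.2% and 34.5% for *Ikzf2*. Each of these differences was smaller on plate 6 than in the pooled cells. The *Gfi1b* intervals on plate 6 were 24.5 to 53.6 and 0.846 to 22.8. Cells of a plate are not replicates, so no difference between these shares is tested.

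The E7.5 *Cdh5*-positive cells showed the same, with 54 cells with and 76 without a *Runx1* read. *Gfi1b* was found in 51.9% and 3.95%, *Myb* in 57.4% and 2.63%, *Ikzf1* in 59.3% and 5.26% and *Ikzf2* in 74.1% and 25%. On lane plate 2 alone (15 and 52 cells) these were 40% and none of 52 cells (95% upper bound 6.85%) for *Gfi1b*, 53.3% and 1.92% for *Myb* and 60% and 1.92% for *Ikzf1*. Lane plate 3 (11 and 11 cells) was the exception for *Ikzf1*, which was found in 2 cells with and 3 cells without *Runx1*.

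Globin-high cells had another pattern. Of those at E8.5, 73.7% had a *Runx1* read and 44 cells had none, and *Ikzf1* was found in 57.7% (48.5 to 66.6) of the first and 84.1% (69.9 to 93.4) of the second. *Mllt3* was found in 86.2% and in 44 of 44 cells. *Myb* was found in 52.03% and 11.4%, *Ikzf2* in 58.5% and 25%, *Cbfb* in 31.7% and 18.2% and *Gfi1b* in 86.99% and 79.5%. The 2 large plates differ in these genes other than *Gfi1b*, and within plate 1 (38 and 36 cells) the *Ikzf1* shares were 81.6% and 97.2% and those of *Myb* 10.5% and 2.78%. Both differences were smaller there than in the pooled cells, and none is tested.

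**Figure D5:**
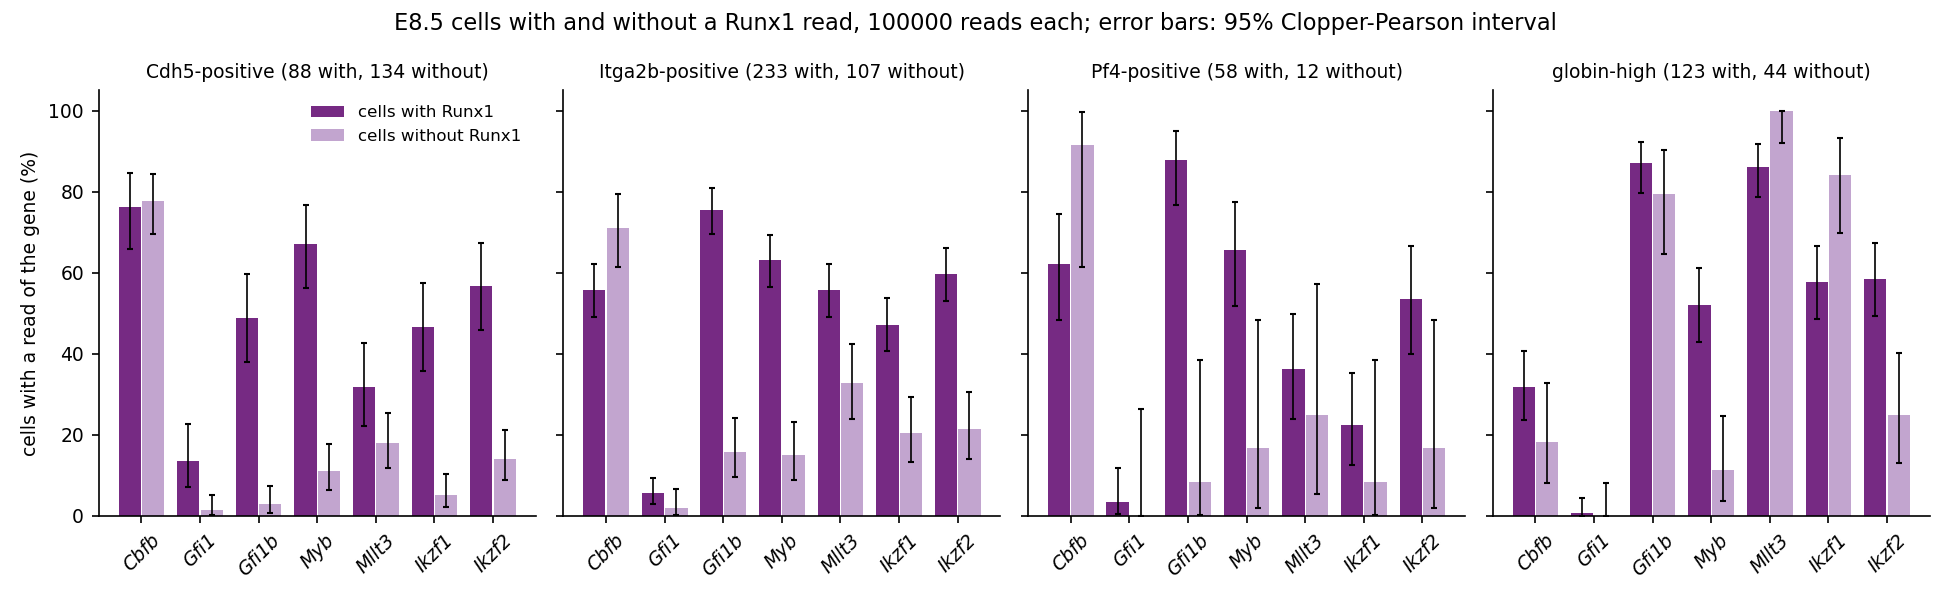
Share of E8.5 cells with a read of each gene (y axis, percent) among cells with (dark) and without (light) a *Runx1* read, in the 4 gates, at 100000 reads per cell with 95% Clopper-Pearson intervals. In *Cdh5*-positive cells *Gfi1b* is found in 48.9% against 2.99% and *Cbfb* in 76.1% against 77.6%, and in globin-high cells *Ikzf1* is found in 57.7% against 84.1%.

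Counting all 8 genes per cell at 100000 reads, 4 or more were found in 30.2% of E8.5 *Cdh5*-positive, 58.2% of *Itga2b*-positive, 64.3% of *Pf4*-positive and 72.5% of globin-high cells, against 1.61% of ungated cells (0.441 to 4.08). At E7.5 the shares were 31.5%, 54.3%, 73.9% and 87.3%, against 5.81%. No cell had a read of all 8 genes, and the most in a cell was 7.

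Between stages, few of the genes differed by 2-fold within a gate, and *Ikzf2* was the most regular of those that did. It was lower at E8.5 in *Cdh5*-positive (61.5 to 17.8 CPM), *Itga2b*-positive (79.3 to 36.6 CPM) and *Pf4*-positive cells (134.7 to 43.98 CPM), by log2 differences of -1.73, -1.09 and -1.59. Its plates overlapped, since *Cdh5*-positive cells had 24.9 to 139.05 CPM over 4 plates at E7.5 and 2.09 to 63.01 CPM over 4 plates at E8.5. In *Cdh5*-positive cells *Gfi1* was the 1 gene that was higher (log2 1.63) and *Ikzf2* the 1 that was lower, where 9.67% and 10.6% of all genes were. In *Itga2b*-positive cells *Gfi1* (1.17) and *Myb* (1.27) were higher and *Ikzf2* lower (7.55% and 11.6% of all genes). In *Pf4*-positive cells *Gfi1b* was higher (1.18) and *Ikzf1* (-1.38) and *Ikzf2* lower (20.7% and 13.7%), and in globin-high cells *Myb* (1.66) and *Cbfb* (1.06) were higher and none lower (11.8% and 12.7%). *Runx1* differed by -0.44, -0.20, -0.04 and -0.43 in the 4 gates and by -2.02 in ungated cells. Stage, plate and sorted population cannot be told apart here.

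The other genes of these pathways were counted in lists. Of all genes tested, 9.39%, 8.36%, 10.5% and 5.84% were higher in the 4 gates at E8.5, and 17.8%, 21.8%, 23.8% and 36.5% lower. Of 10 SCL complex and ETS partners, which act beside RUNX1 in haemogenic endothelium, 8 were at least 2-fold higher in E8.5 *Cdh5*-positive cells, 8 in *Itga2b*-positive, 9 in *Pf4*-positive and 4 in globin-high cells. *Lyl1*, a relative of the master regulator *Tal1*, led with log2 differences of 5.28, 5.41, 5.87 and 4.99, and the homeobox gene *Meis1* was lowest in globin-high cells at -2.81. Of 9 haematopoietic genes known to depend on RUNX1, 8 were higher in each of the first 3 gates and 3 in globin-high cells, where the 8 myeloid markers summed to 5.03 CPM. The list shares *Itga2b* with the gates. Of the 5 other core-binding factor genes and cofactors only the corepressor *Cbfa2t3* (ETO2) was higher, by 3.11, 3.69, 3.64 and 3.58 in the 4 gates, while *Runx1t1* was lower in *Cdh5*-positive (-1.80) and *Pf4*-positive cells (-1.90).

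None of the 4 GFI corepressor genes passed 2-fold at E8.5 in any gate, with *Rcor1* between 0.31 and 0.82 in *Cdh5*-, *Itga2b*- and globin-gated cells. At E7.5 *Kdm1a* was lower in all 4 gates (-1.02, -1.11, -1.43 and -1.56), the deacetylase gene *Hdac1* was lower in globin-high cells (-1.24), and *Ikzf5* was higher in *Pf4*-positive (1.49) and globin-high cells (1.40). At this stage the partner list counted 9, 8, 9 and 5 genes higher in the 4 gates and the RUNX1-dependent list 8, 8, 8 and 4. In the Ikaros family *Ikzf5* did not pass 2-fold at E8.5 and *Ikzf4* was lower in all 4 gates (-2.06, -2.09, -2.47 and -1.95). *Mybl2*, the proliferation-linked relative of *Myb*, was at E8.5 between -0.31 and 0.10, and *Mybl1* was lower in *Itga2b*-positive (-1.04) and globin-high cells (-1.38). Among 5 partners of AF9 in the elongation complex *Aff1* (AF4) was higher in *Itga2b*-positive (1.53) and globin-high cells (1.90) and *Mllt1* (ENL), the paralogue of *Mllt3*, was lower in these and in *Pf4*-positive cells (-1.06, -1.44 and -1.29), all at E8.5. At E7.5 neither passed 2-fold in any gate, and *Mybl1* was lower in all 4 (-1.25, -1.78, -2.44 and -2.29).

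Across the 1634 cells the genes most like *Runx1* by Pearson correlation of log2(CPM + 1), out of 16120 genes found in at least 5% of cells and leaving out the 8 genes themselves, were *Nfe2* (r = 0.66), *Fermt3* (0.65), *Tspan32* (0.65), *Adgrg1* (0.65), *Dapp1* (0.62), *Itgb3* (0.61), *Rab27b* (0.60), *Mfsd2b* (0.59), *Itga2b* (0.58) and *Gucy1a1* (0.56). *Nfe2* is a transcription factor of megakaryocytes and erythroid cells, *Fermt3* encodes kindlin-3 of blood cells, and *Itgb3* encodes the integrin chain that pairs with CD41. These values are descriptions: cells share plates and depth, and with plates centred they were between 0.22 and 0.34 and 6 of the 10 genes stayed among the first 10. Of the other 7 genes, *Gfi1b* had r = 0.63 with *Runx1*, above that of *Dapp1*, *Myb* 0.47, *Ikzf1* 0.46, *Ikzf2* 0.38, *Mllt3* 0.09 and *Cbfb* -0.07, and *Gfi1* was found in too few cells.

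The closest genes of the others were partly shared. *Gfi1b* was closest to *Nfe2* (r = 0.83), *Mfsd2b* (0.80) and *Tspan32* (0.77), and among the closest to *Ikzf1* were *Nfe2* (0.65) and the erythroid factor *Klf1* (0.64). Among the closest to *Mllt3* were *Klf1* (0.47) and *Hba-a2* (0.46). *Myb* was closest to *Rab27b* (0.53), *Atp2a3* (0.53) and *Adgrg1* (0.52), and *Ikzf2* to *Adgrg1* (0.41), *Nfe2* (0.41) and *Dapp1* (0.39). *Cbfb* was closest to *Hmga2* (0.38), *Marcksl1* (0.38) and *Lin28a* (0.36), which are widely expressed in early embryos. With plates centred, 2 of the 3 closest stayed for *Gfi1b* and *Cbfb*, 1 for *Mllt3*, *Ikzf1* and *Ikzf2*, and 0 for *Myb*.

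The 4 named E7.5 embryos held at most 3 cells of any gate, so they describe the embryo outside the blood lineages. *Runx1* was at 12.2, 11.5, 22.7 and 18.9 CPM in embryos 1, 2, 4 and 5 and was found in 22.8% to 31.9% of cells. *Myb* was at 10.1, 14.9, 1.32 and 2.96 CPM and *Ikzf2* at 9.20, 7.77, 1.96 and 2.63 CPM, so embryos 1 and 2 were higher than embryos 4 and 5 in both, and lower in *Runx1*. The embryos' cells differed in kind: ungated *Pou5f1*-positive cells made up 91.3%, 94.7%, 28.6% and 38.6% of the cells of embryos 1, 2, 4 and 5, and *Elf5*-positive cells 2.17%, 0%, 53.8% and 39.8%. Within the *Pou5f1*-positive cells the order stayed, with *Myb* at 11.02, 15.6, 1.75 and 4.38 CPM, *Ikzf2* at 8.82, 7.91, 2.04 and 5.53 CPM and *Runx1* at 5.47, 7.37, 20.6 and 26.95 CPM. *Cbfb* was at 41.7 to 49.4 CPM and *Mllt3* at 21.98 to 33.2 CPM in the 4 embryos, and *Ikzf1* at 0.0111 to 1.89 CPM.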

How the data were processed

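The authors sorted single cells into plates, amplified poly-A RNA by Smart-seq2, aligned reads with HISAT2 2.1.0 to GRCm38 and deposited raw read counts per Ensembl gene from featureCounts, for 1824 cells. These reads carry no molecular identifiers, and strand and multimapping settings are not given in the sources used here. Groups are the stages in the labels. Gene names came from the annotation of the same build, which matched 55141 of the 55487 rows. No pair of cells with reads had identical counts.

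From the counts, CPM was computed over all genes, and pooled CPM as summed gene reads over summed reads of the cells. Shares of cells were taken after thinning each cell to 100000 reads (seed 1). Differences are log2 ratios with a pseudocount of 1 CPM, over genes with at least 1 CPM on either side. Differences of at least 1 (2-fold) were counted. Intervals are 95% exact Poisson or Clopper-Pearson intervals. Plates enter a range with at least 5 cells and a co-detection with at least 10 on both sides. Genes most like a gene were the 10 (*Runx1*) or 3 with the highest correlation. Marker and pathway genes were named if highest or lowest in their list. Other genes were named as gate genes. The planned edgeR test within named embryos was not run. Normalization factors came from edgeR 4.0.16 and DESeq2 1.42.0 in R 4.3.3. The rest used Python 3.11.15, numpy 2.4.6, scipy 1.17.1, pandas 2.3.3 and matplotlib 3.10.9. The ratio code was tested on simulated data. The 8 genes and the lists were chosen with earlier results of these data known. Of the gene promoters, *Ikzf2* was not analysed here. A gene among those most like *Ikzf1* and *Mllt3* is not reported here.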

Additional observations from a re-analysis of the deposited data

Results flagged for a closer look

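Among the 4 named E7.5 embryos, 16 measures (the CPM and the share of cells with a read of each of the 8 genes) were searched for an embryo that stood far from the others. Such a search picks out about 1 group in 20 by chance. *Gfi1* was at 0.602 CPM in embryo 4 (36 reads) and at 0 in the others, and was found in 1.10% of its thinned cells, which is 1 cell of 91. *Gfi1b* was at 1.01 CPM in embryo 5 and at 0.0572, 0.0445 and 0.100 CPM in embryos 1, 2 and 4. The share of thinned cells with a *Gfi1b* read was 0 in embryo 1 and 1.06%, 1.10% and 1.14% in the others, a difference of 1 cell each. All 4 values rest on at most 1 thinned cell per embryo.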

How the results depend on the processing

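No paired analysis was possible because no difference between kinds of cell comes from a test. The test within named embryos, and its alternatives with TMM against DESeq2 factors, without a filter, without the embryo block and without each embryo, were not run, since at most 3 cells of a gate were on an embryo's plate. Against all other passing cells, 3 genes were higher in E7.5 *Cdh5*-positive cells, and at E8.5 1 in *Cdh5*-positive, 2 in *Pf4*-positive and 3 in globin-high cells. The *Runx1* difference (log2) was then 1.70 in E7.5 globin-high cells and 0.0114, 4.08, 1.98 and 0.81 in the 4 E8.5 gates, and *Gfi1b* (-1.42) and *Ikzf1* (-1.13) in E8.5 *Cdh5*-positive and *Ikzf1* (-0.82) in *Pf4*-positive cells turned to lower. With cells in 1 gate only, 2 genes were higher in E8.5 *Cdh5*-positive cells. *Runx1* was then at 1.12, 6.13 and 2.43 in E8.5 *Cdh5*-positive, *Itga2b*-positive and globin-high and 1.03 in E7.5 globin-high cells. Turned were *Mllt3* (E7.5 *Itga2b*-positive, -2.51), *Gfi1* (E7.5 *Cdh5*-positive, -0.10), *Gfi1b* (E8.5 *Cdh5*-positive, -0.0119) and *Ikzf2* (E8.5 globin-high, -0.62). For E7.5 globin-high cells, with 1 plate and so no spread between plates, *Runx1* was at 2.80 with gates at 50 CPM, 2.88 with globin-high at 5% of reads, 3.13 without haemoglobin reads, 3.09 as a mean over cells, 3.32 with TMM, 3.41 with DESeq2 factors, and 3.07 and 2.66 with pseudocounts of 0.1 and 5 CPM. Those pseudocounts gave 4.46 and 2.996 in E8.5 *Cdh5*-positive cells, and 5 CPM gave 3.93 in *Itga2b*-positive cells. Unless another is named, the *Runx1* differences of this section carry a pseudocount of 1 CPM. The differences given with intervals above carry none, so the values are not directly comparable. Gates at 50 CPM turned *Gfi1* in E8.5 *Pf4*-positive cells (-0.071).

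Within E7.5 lane plate 1, whose 5 ungated cells held no *Runx1* read, *Runx1* was at 7.17, 7.36, 7.59 and 6.78 in the 4 gates, values that rest on the pseudocount. Lane plate 2 gave 5.63 in *Pf4*-positive cells, with *Mllt3* at -2.66 in *Itga2b*-positive cells. Lane plate 3 turned *Gfi1* in *Cdh5*-positive (-0.0781) and *Mllt3* in *Itga2b*-positive cells (-0.69), and on lane plate 4, 3 genes were higher in *Cdh5*-positive cells, *Ikzf1* was at -0.54 there and *Ikzf2* at -0.47 in *Itga2b*-positive cells. On E8.5 plate 1 *Runx1* was at 2.12 in *Itga2b*-positive and 1.62 in globin-high cells. On plate 3, 2, 1 and 1 genes were higher in *Cdh5*-, *Itga2b*- and *Pf4*-positive cells, with *Runx1* at 1.41, 0.95 and -0.0433, *Gfi1b* at -0.0147 (*Cdh5*) and -0.0433 (*Pf4*) and *Myb* at -0.48 (*Pf4*). On plate 4, 1 gene was higher in *Cdh5*- and in *Itga2b*-positive cells, with *Runx1* at 2.16 and 2.43 and *Ikzf2* at -3.44 (*Itga2b*). On plate 6 *Runx1* was at 1.54, 1.86 and 2.101 in these 3 gates and *Mllt3* at 0.047 (*Cdh5*). The cause was not tested. Leaving out each plate in turn gave *Runx1* differences of 1.88 to 3.04, 2.47 to 3.70, 3.40 to 4.17 and 2.88 to 3.39 in the 4 E7.5 gates and 3.52 to 4.61, 4.63 to 5.76, 4.29 to 6.29 and 3.74 to 6.04 at E8.5. The counts of higher genes were 4 to 6, 5 to 7, 6 to 7 and 5 at E7.5 and 5, 5 to 6, 4 to 6 and 5 to 6 at E8.5. Without lane plate 1, *Mllt3* in E7.5 *Itga2b*-positive cells was at -0.0549, in a range up to 1.761. In all, 44 of the *Runx1* values moved by more than a set limit and 1 turned, and the rest kept. This limit was the spread between plates. For E7.5 globin-high cells, with 1 plate, it came from the narrow interval of the ratio, so small shifts counted as moved. Of the other genes' values 1253 kept, 19 turned and the rest moved by more than the limit. Centring within plates kept 6 of the 10 genes most like *Runx1*. Of the shares of all genes past 2-fold, 16 moved by over 1.5 times, all without a filter on low values. Reads per cell limit what is found: 3 reads correspond to 0.00494 to 0.0814 CPM in the gated and ungated cells.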
